A study of Mus musculus with 1 sample.

Results

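The F-box and cullin genes described here are 85 of the 22180 mouse genes that the array could name. They were chosen by symbol alone: the Fbxl, Fbxo and Fbxw genes with a number that had a probe set of a single symbol, Btrc, Skp1, Skp2, and the cullins Cul1, Cul2, Cul3, Cul4a, Cul4b, Cul5 and Cul7. The data are 1 Affymetrix mouse gene array of total RNA from D3 ESCs, a mouse embryonic stem cell line, that received a control shRNA (shCtrl, genotype given as control) by retrovirus for 48 h according to the labels. The methods instead describe transfection with the shCtrl plasmid and a longer culture. The study set these cells against CCP6-depleted ESCs. Those were not analysed here, and the values below are levels in shCtrl-treated ESCs only. A single array has no replicates, so no value carries an error or a p-value, and the number of arrays limits the precision. The methods state that the ESCs were cultured with LIF on a layer of MEFs stopped from dividing by mitomycin C. Of 12 pluripotency genes checked on the array, all 12 exceeded the floor defined below, against 62.0% of all genes that the array could name. Their log2 values ran between 3.89 (Esrrb) and 9.11 (Zfp42), with a median of 7.05. So did 12 of 12 fibroblast genes exceed the floor, with values between 3.71 (Lum) and 10.71 (Fn1) and a median of 8.04. Which of these cells gave the signal of each F-box or cullin gene was not tested.

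Cullin-RING ligases attach ubiquitin to proteins that are then mostly degraded by the proteasome. In the SCF type, the cullin Cul1 carries a RING protein at its end and the adaptor Skp1 at the other, and Skp1 holds an F-box protein that picks the substrate. F-box proteins are named by what follows the F-box: WD40 repeats (Fbxw), leucine-rich repeats (Fbxl) or another or no known domain (Fbxo). The study examined the SCF ligase of βTrCP1, the product of Btrc, as the ligase of Klf4, a core factor of pluripotency.

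Values are log2 values of probe sets, averaged where a gene had more than 1. A floor was set at a log2 value of 2.53, the 95th percentile of 1108 probe sets of olfactory receptor genes, which are largely silent outside the nose. A stricter floor was their 99th percentile, 3.38. Of the F-box and cullin genes, 63 of 85 (74.1%) were above the floor, against 62.0% of all named genes. The stricter floor was exceeded by 57 of 85 (67.1%), against 47.4% of all named genes. Their log2 values ran between 0.62 and 8.43 with a median of 4.26, against a median of 3.20 over all named genes. All named genes include the olfactory receptor genes, which set the floor, and the vomeronasal receptor genes. Without both groups, 13686 of the 13752 named genes above the floor remained. The shares over all named genes are therefore lower than those over the other genes, which were not computed. Probe sets differ in brightness at the same amount of RNA, so calls for single genes were made against the floor and not against another gene. Medians, ranges and orders of values describe signal on this array, and differences in amount of RNA between genes were not tested. Of the 22 genes that were not above the floor, 14 were neighbours in a single run of Fbxw genes, and the other 8 were Fbxl or Fbxo genes. Without that run, 62 of 70 members (88.6%) exceeded the floor and the median was 4.81.

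**Figure D1:**
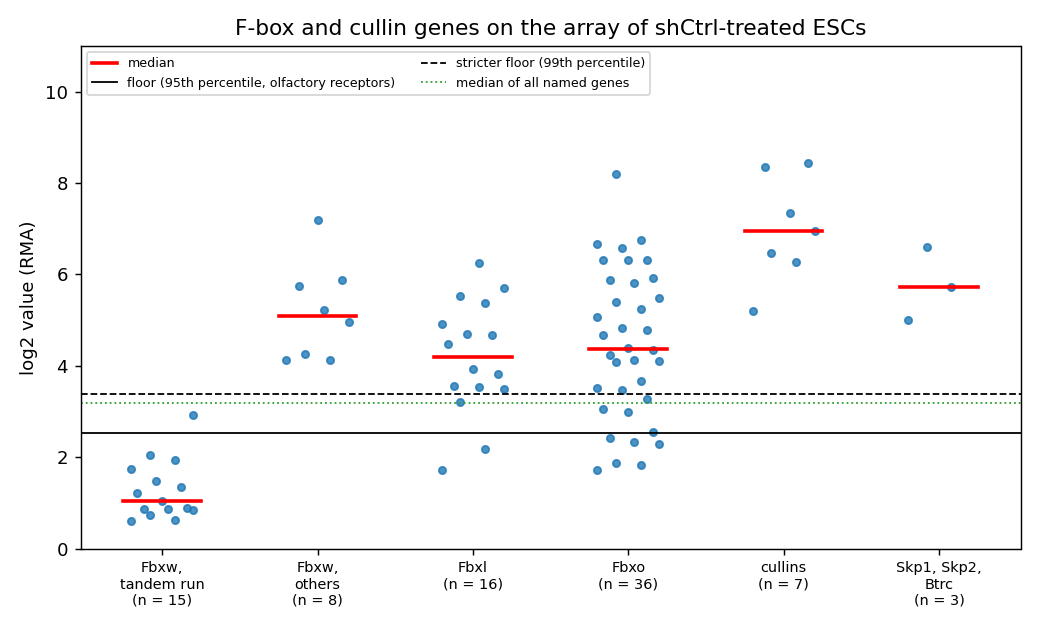
Log2 values (vertical axis) of the 85 genes, 1 point a gene, by family along the horizontal axis, with the median of each family as a red bar. The solid and dashed lines are the floor (2.53) and the stricter floor (3.38), and the dotted line is the median of all named genes (3.20). Under the floor lie 14 of 15 genes of the Fbxw tandem run, while all 7 cullins lie above both floors. Of all named genes, 62.0% exceed the floor and 47.4% the stricter floor.

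The run is a stretch of 15 Fbxw genes that follow each other in the RefSeq gene table with no other protein-coding gene between them. It was delimited by this order, after the values had been seen. In the mouse these genes are a local expansion of the Fbxw family, and several, such as Fbxw15 and Fbxw24, are known from oocytes. To show how alike the copies are, RefSeq windows of 250 bases before to 50 bases after the start (build GRCm38.p6) are printed for 4 genes of the run, and for Fbxw11 and Skp1, which are outside it. Each is written 5′ to 3′ on the strand of its gene, with every CG dinucleotide in capitals. Fbxw14 (chr9:109287627-109287926, minus strand) and Fbxw28 (chr9:109339610-109339909, minus strand) are the closest pair among the 11 windows of the run that were compared. Fbxw24 (chr9:109626010-109626309, minus strand) is another copy, and Fbxw23 (chr9:109543140-109543439, minus strand) is the gene of the run that was above the floor. Fbxw11 lies at chr11:32642305-32642604 and Skp1 at chr11:52231745-52232044, both on the plus strand.
Fbxw14: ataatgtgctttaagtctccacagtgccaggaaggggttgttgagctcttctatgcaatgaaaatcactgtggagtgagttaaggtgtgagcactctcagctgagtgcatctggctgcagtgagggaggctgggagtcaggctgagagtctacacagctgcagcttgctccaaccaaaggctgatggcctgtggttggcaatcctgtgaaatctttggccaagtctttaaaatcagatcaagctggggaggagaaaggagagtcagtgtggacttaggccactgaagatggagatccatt
Fbxw28: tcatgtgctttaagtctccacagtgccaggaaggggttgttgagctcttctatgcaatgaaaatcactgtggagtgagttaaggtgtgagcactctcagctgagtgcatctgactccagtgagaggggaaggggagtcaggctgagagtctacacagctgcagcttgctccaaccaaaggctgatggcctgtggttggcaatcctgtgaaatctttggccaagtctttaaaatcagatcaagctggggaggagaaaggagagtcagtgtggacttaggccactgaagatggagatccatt
Fbxw24: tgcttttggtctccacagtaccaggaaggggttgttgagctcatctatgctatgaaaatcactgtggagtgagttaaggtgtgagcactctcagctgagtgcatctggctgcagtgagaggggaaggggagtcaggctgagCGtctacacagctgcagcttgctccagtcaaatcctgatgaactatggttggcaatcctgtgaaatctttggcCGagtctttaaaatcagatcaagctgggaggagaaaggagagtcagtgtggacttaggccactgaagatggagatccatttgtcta
Fbxw23: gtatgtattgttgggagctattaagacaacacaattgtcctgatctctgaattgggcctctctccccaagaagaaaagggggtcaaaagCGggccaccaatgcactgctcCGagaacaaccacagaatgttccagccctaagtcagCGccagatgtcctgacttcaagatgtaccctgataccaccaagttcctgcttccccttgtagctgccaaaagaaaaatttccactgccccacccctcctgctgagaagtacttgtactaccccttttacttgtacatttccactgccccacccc
Fbxw11: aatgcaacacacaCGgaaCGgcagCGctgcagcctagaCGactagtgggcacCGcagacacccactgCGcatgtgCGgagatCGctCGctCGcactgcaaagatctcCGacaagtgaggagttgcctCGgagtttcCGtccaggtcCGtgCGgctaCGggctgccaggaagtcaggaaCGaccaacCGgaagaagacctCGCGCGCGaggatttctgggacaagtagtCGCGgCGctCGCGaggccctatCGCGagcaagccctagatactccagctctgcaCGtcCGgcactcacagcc
Skp1: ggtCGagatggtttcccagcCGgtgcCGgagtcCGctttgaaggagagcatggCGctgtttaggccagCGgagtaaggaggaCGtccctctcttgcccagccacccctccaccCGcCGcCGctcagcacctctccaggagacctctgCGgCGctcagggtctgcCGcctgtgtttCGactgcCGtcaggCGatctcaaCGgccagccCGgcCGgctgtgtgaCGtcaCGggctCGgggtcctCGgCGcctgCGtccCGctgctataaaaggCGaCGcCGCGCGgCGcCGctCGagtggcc

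The windows of Fbxw14 and Fbxw28 were identical at 96.7% of aligned positions and held 0 CG dinucleotides each. Fbxw24 held 2 and Fbxw23 held 3 of them, against 31 in Fbxw11 and 34 in Skp1. The other Fbxw genes outside the run with a window held fewer than Fbxw11. Averaged over the windows of a gene, these were 10.3 (Fbxw7), 13 (Fbxw17), 17 (Fbxw5 and Fbxw9) and 19 (Fbxw2). A window was found by gene ID for 12 of the 15 genes of the run (80.0%), with 13 windows in all because Fbxw21 has more than 1 start. Those 13 windows held between 0 and 4 CG dinucleotides with a median of 1, whereas all 32851 windows of the table had a median of 7. When the windows of a gene were averaged, the 16918 named genes with a window (76.3% of all) had a median of 14, and 27.0% of them had at most 4. At most 4 were found in 38.0% of all windows, so such a count is not rare, and 94.6% of all windows held at least 1. CG reads the same on both strands and its copies cannot overlap. For all 85 genes the same description is void, because 65 of them (76.5%) had a window, which is under the minimum of 80%.

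**Figure D2:**
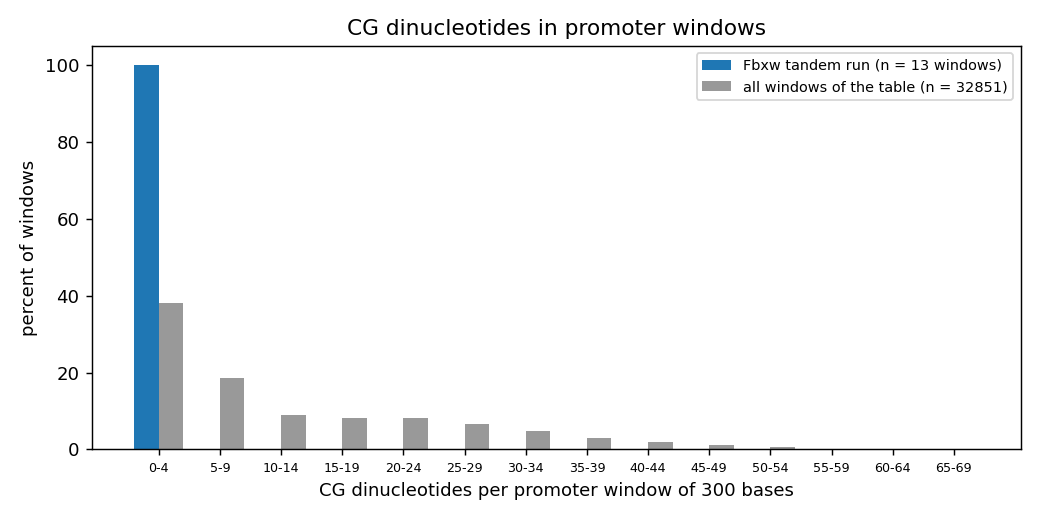
Percent of windows (vertical axis) by the number of CG dinucleotides per 300 bases (horizontal axis), for the 13 windows of the Fbxw tandem run in blue and all 32851 windows of the RefSeq table in grey. Every window of the run falls in the lowest class of 0 to 4, which holds 38.0% of all windows.

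Identity was computed for the 11 genes of the run with 1 window. Among 10 of them, without Fbxw23, the 45 pairs were identical at 64.8% to 96.7% of aligned positions, with a median of 85.3%. The window of Fbxw23 matched the others at 46.1% to 50.4% with a median of 48.7% over 10 pairs. Windows of the run set against Fbxw11 or Skp1 gave 46.3% to 52.0%, a range that overlaps that of Fbxw23 with its neighbours. Whether the transcripts are equally alike was not tested, and probe sets of near-identical copies may read each other's RNA, so single values in the run are uncertain.

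On the array, Fbxw23 had a log2 value of 2.92, between the floor and the stricter floor. None of the other 14 genes of the run was above the floor, whereas 62.0% of all named genes were. Fbxw14 had 0.62, Fbxw27 0.64 and Fbxw28 0.73. These were followed by Fbxw25 (0.85), Fbxw24 and Fbxw19 (0.87 each), Fbxw20 (0.90) and Fbxw26 (1.04). Values over 1.2 were found for Fbxw22 (1.22), Fbxw18 (1.34), Fbxw15 (1.48), Fbxw21 (1.74), Fbxw16 (1.93) and Fbxw13 (2.06). The median of the run was 1.04. Signal this low does not prove that no transcript was present.

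**Figure D3:**
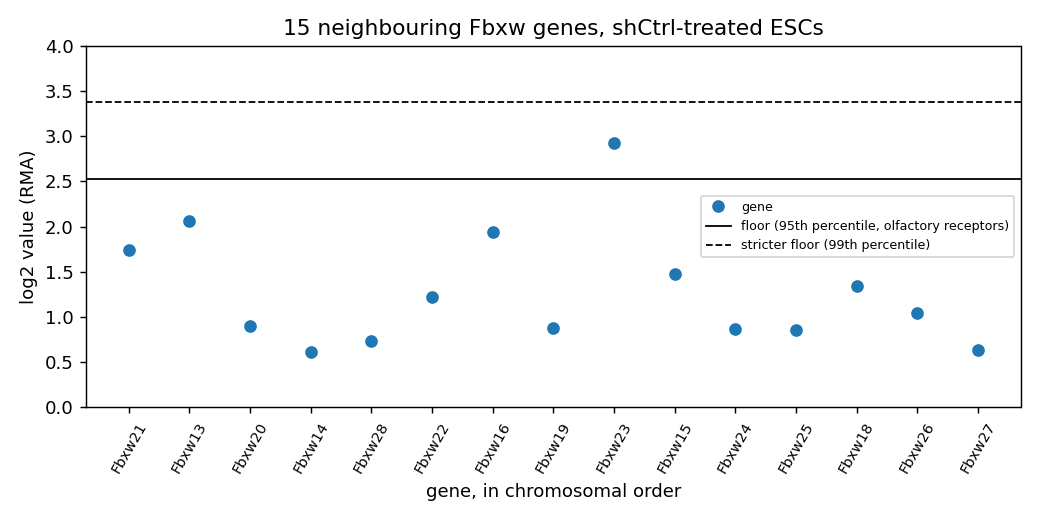
Log2 value (vertical axis) of the 15 neighbouring Fbxw genes, 1 point a gene, in the order in which they lie on the chromosome (horizontal axis). The solid line is the floor (2.53) and the dashed line the stricter floor (3.38). Fbxw23 at 2.92 is the single point above the floor, which 62.0% of all named genes exceed.

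Of the Fbxw genes outside the run, 8 of 8 exceeded the stricter floor, against 47.4% of all named genes, and their median was 5.09. Btrc belongs to this family by structure but is counted apart here because of its name. Its product βTrCP1 binds substrates such as β-catenin and IκBα at a phosphorylated degron, and its log2 value was 6.59. Fbxw11, which encodes the closely related βTrCP2, had 7.19. Both genes of βTrCP proteins were above both floors. Fbxw7, whose product targets Myc, cyclin E and Notch, had a value of 5.21. Fbxw8, the F-box protein that works with Cul7, had 5.74. Fbxw2 had 5.89, Fbxw4 (dactylin, linked to limb malformation) 4.26 and Fbxw17 4.13. Fbxw17 bears a number like those of the run but does not lie in it. Fbxw5 had 4.97, the mean of probe sets at 3.11 and 6.83. Fbxw9 had 4.12, from probe sets at 3.87 and 4.36.

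Skp1, Skp2 and the 7 cullins were all above the stricter floor, against 47.4% of all named genes. Cul1, the scaffold of SCF, had a log2 value of 7.36. Skp1, the adaptor of every SCF ligase, had 5.01, which is the mean of probe sets at 2.32 and 7.70, on either side of the floor. Skp2, the F-box protein that targets the cell cycle inhibitor p27, had 5.73. Cul2, which uses elongins and VHL-type receptors, had 6.96, and Cul5, which uses elongins and SOCS proteins, had 5.21 from probe sets at 3.65 and 6.76. Cul3, the scaffold for BTB proteins such as Keap1, had 8.43. Cul4a and Cul4b, which bind Ddb1, had 6.46 and 8.36, and Cul7 had 6.27. The median of the 7 cullins was 6.96, against 3.20 over all named genes.

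Of the F-box and cullin genes, 81 had 1 probe set and 4 (Skp1, Cul5, Fbxw5 and Fbxw9) had more. Skp1 was the gene among these 4 whose probe sets lay on both sides of the floor. This was common on the array: of 1082 named genes with more than 1 probe set, 40.3% had probe sets on both sides, and the gap between the highest and the lowest probe set had a median of 1.86 on the log2 scale. The gap was 5.38 for Skp1, 3.71 for Fbxw5, 3.11 for Cul5 and 0.49 for Fbxw9.

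Among Fbxl genes, 14 of 16 (87.5%) exceeded the floor, against 62.0% of all named genes. The family had a median log2 value of 4.20. Fbxl5, the iron-sensing F-box protein that targets IRP2, had a value of 6.26. Fbxl14, which targets the transcription factor Snail1, had 5.53. Fbxl17, which recognises wrongly paired BTB proteins, had 5.71. Fbxl19, whose protein binds unmethylated CpG DNA and is known in mouse ESCs for recruitment to CpG islands, had 4.68. Fbxl4, a mitochondrial protein, had 4.69. The paralogs Fbxl2 and Fbxl20, whose products carry a lipid anchor motif, had 3.93 and 5.37. Fbxl7 had 4.91, Fbxl6 4.48, Fbxl8 3.83, Fbxl15 3.56 and Fbxl18 3.49, all above the stricter floor. Fbxl22, known from heart muscle, had 3.53, and Fbxl16, known from brain, had 3.21 and was above the lower floor alone. Fbxl21 had 2.18 and Fbxl13 had 1.71, and neither was above the floor.

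Among Fbxo genes, 30 of 36 (83.3%) exceeded the floor, against 62.0% of all named genes, and 26 (72.2%) exceeded the stricter floor, against 47.4%. The family had a median of 4.37. Fbxo15, a gene of undifferentiated ESCs whose locus has served as a reporter of reprogramming, had a log2 value of 5.49. Fbxo5 (Emi1), an inhibitor of the anaphase-promoting complex and itself a substrate of βTrCP, had 5.39. Its oocyte relative Fbxo43 (Emi2), which holds eggs in meiotic arrest, had 1.87 and was not above the floor. Both members of this pair come from 1 probe set each.

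Fbxo2, Fbxo6, Fbxo17, Fbxo27 and Fbxo44 encode related F-box proteins, some of which bind sugars and recognise glycoproteins on their way to degradation. All 5 were above the floor, against 62.0% of all named genes. Fbxo6 had a log2 value of 5.24, Fbxo44 of 3.52 and Fbxo2 of 3.47, and these 3 genes are neighbours with no other protein-coding gene between them. Fbxo27 (3.06) and Fbxo17 (4.24) are neighbours too, and Fbxo27 was not above the stricter floor.

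Several Fbxo genes with known substrates or partners were above the stricter floor. Fbxo11, which targets Bcl6, had a log2 value of 8.21. Fbxo7, a gene mutated in an inherited parkinsonism in humans, had 4.35. Fbxo4 and Fbxo31, both linked to cyclin D1 turnover in human cells, had 4.08 and 4.67. Fbxo22, linked to histone demethylases of the Kdm4 group, had 5.81, and Fbxo42, linked to p53, had 5.93. Fbxo38, a co-activator of Klf7 in the mouse, had 6.58. Fbxo45, which pairs with the ligase Mycbp2 in neurons, had 4.83. Fbxo32 (atrogin-1), raised in wasting skeletal muscle, had 4.79, and Fbxo30, also known from muscle wasting, had 6.31.

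The remaining Fbxo genes above the stricter floor lay between 3.67 and 6.76. Fbxo8 had a log2 value of 6.76, Fbxo3 of 6.68, Fbxo25 of 6.32, Fbxo28 of 6.31 and Fbxo21 of 5.89. Fbxo33 had 5.07, Fbxo34 4.39, Fbxo9 4.13, Fbxo10 4.11 and Fbxo36 3.67. Between the floors were Fbxo46 (3.27), Fbxo16 (3.00) and Fbxo48 (2.55), beside Fbxo27. Fbxo48 lay closest above the floor and Fbxo41, at 2.42, closest under it, so both are on an uncertain side. The other Fbxo genes not above the floor, beside Fbxo41 and Fbxo43, were Fbxo40 (2.32), Fbxo47 (2.29), Fbxo24 (1.83) and Fbxo39 (1.72). Fbxo40 is known from skeletal muscle, Fbxo41 from brain, and Fbxo47 from meiosis in germ cells.

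A list of 13 F-box genes linked to particular tissues was drawn up by role, with earlier results of these data known. It holds Fbxo2, Fbxo41 and Fbxl16 for brain, Fbxo32, Fbxo40 and Fbxl22 for muscle, Fbxo43, Fbxo47, Fbxo39, Fbxw13, Fbxw15 and Fbxw24 for germ cells, and Fbxo15 for ESCs. The floor was exceeded by 5 of 13 (38.5%), and the list had a median of 2.32, against 62.0% and 3.20 over all named genes. This shortfall depended on the floor, because at a lower floor taken from vomeronasal receptor genes (2.26) the count was 8 of 13 (61.5%), against 68.1% of all named genes. At the floor of 2.53 the germ cell genes were all under it. Of these, Fbxw13, Fbxw15 and Fbxw24 belong to the Fbxw run described above, so their count is not a separate result. The 5 above it were Fbxo15, Fbxo32, Fbxl22, Fbxo2 and Fbxl16, and the last was not above the stricter floor.

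The genes that work with the cullin ligases were described by lists chosen by role, with earlier results of these data known. For neddylation, the attachment of the ubiquitin-like Nedd8 that activates cullins, 9 of 10 genes (90.0%) were above the floor, against 62.0% of all named genes (median log2 value 5.12 in the list). Nedd8 itself had 8.41, its activating enzyme subunits Nae1 and Uba3 had 7.35 and 8.74, and the conjugating enzyme Ube2f, which serves Cul5, had 4.78. Dcun1d1, which helps load Nedd8, had 2.33 from probe sets at 2.16 and 2.49 and was not above the floor. Its relatives Dcun1d2, Dcun1d3, Dcun1d4 and Dcun1d5 were among the 9 genes above the floor.

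Of 12 genes of the exchange factors Cand1 and Cand2, the COP9 signalosome, which removes Nedd8, and the Nedd8 protease Senp8, all 12 exceeded the stricter floor, against 47.4% of all named genes, with a median of 6.90. Cand1 had a log2 value of 7.41, Cand2 of 5.78, and the signalosome genes Gps1 and Cops2 had 7.61 and 8.68. Senp8 had 3.39, which is next to the stricter floor. For ubiquitin activating and conjugating enzymes, 11 of 11 were above both floors (median 7.52), against 62.0% and 47.4% of all named genes. Uba6, a ubiquitin activating enzyme, had 8.11, and the conjugating enzymes Ube2d1 and Ube2d3 had 7.27 and 8.27. Ube2d2a had 6.65, the mean of probe sets between 4.42 and 8.39. The E2 enzyme of SCF chains, Cdc34, had 6.47.

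Partners of the other cullins were above the floor for 27 of 27 genes (median 5.58), against 62.0% of all named genes, and all but Klhl13 (3.14) were above the stricter floor. Socs3 (3.39) was next to the stricter floor, as the mean of probe sets at 2.92 and 3.85. Keap1 (2.83 and 4.45) and Dcaf7 (3.14 and 7.43) also had probe sets on both sides of the stricter floor. The first of the list were Cul9 (4.17), a relative of Cul7, Ccdc8 (3.70) and Obsl1 (3.93), which form a complex with Cul7, and Elob (9.47), an elongin of Cul2 and Cul5 ligases. The anaphase-promoting complex, the other large ubiquitin ligase of the cell cycle with a cullin-like subunit, had 14 of 14 genes above both floors (median 6.72), against 62.0% and 47.4% of all named genes, among them Anapc1 (7.38), Anapc2 (6.37), Anapc4 (6.54) and Anapc5 (8.44). Of 5 further F-box genes with other names, 4 (80.0%) were above the floor, against 62.0% of all named genes. These were Kdm2a (6.53), a histone demethylase, Lrrc29 (4.04), Nccrp1 (3.43) and Lmo7 (3.01). Ect2l (2.22) was not above it.

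Genes of proteins known as substrates of SCF ligases were above both floors for 23 of 23 (median log2 value 5.94), against 62.0% and 47.4% of all named genes. Rrm2 (4.38) was the mean of probe sets at 1.88 and 6.88, on either side of both floors. Mcl1 (5.00) was the mean of probe sets at 2.68 and 7.31, on either side of the stricter floor. With the lowest probe set of each gene, 22 of 23 exceeded the floor, against 13412 of 22180 named genes. Klf4 had a value of 8.78 and β-catenin (Ctnnb1) of 8.43, and the NF-κB inhibitor Nfkbia had 7.31 and the cell cycle kinase Wee1 5.94. These are levels of RNA, whereas the ligases act on the proteins, whose levels the array does not measure. The lists differ in how broadly their genes are expressed in tissues, and their shares above the floor are descriptions of this array.

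**Figure D4:**
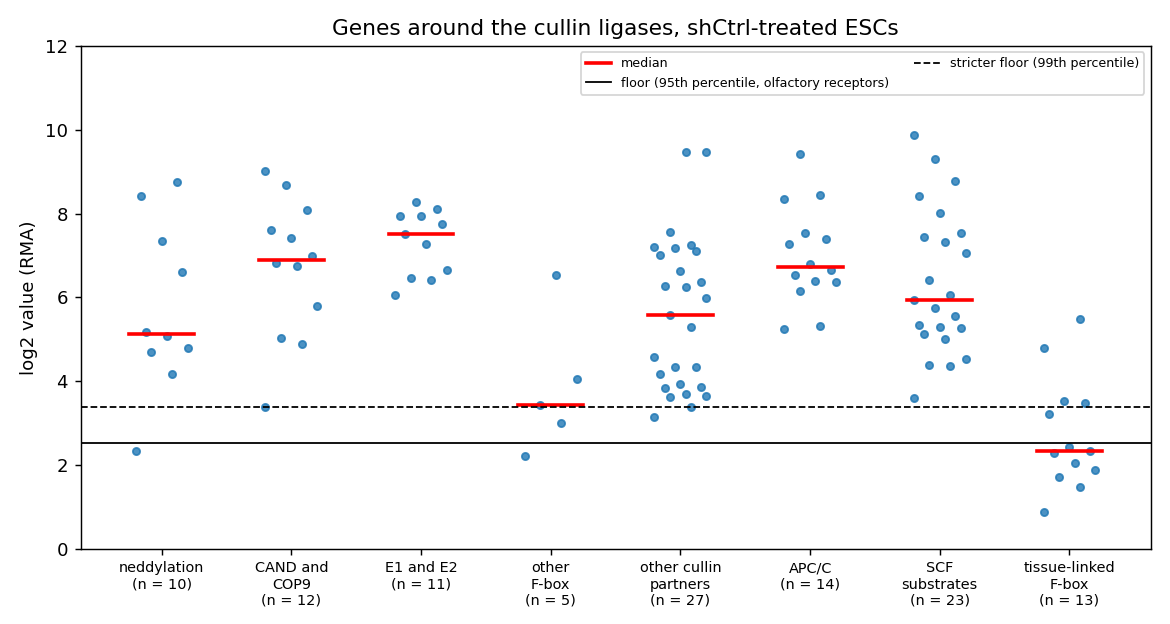
Log2 values (vertical axis) of the genes in 8 lists chosen by role (horizontal axis), 1 point a gene, with list medians as red bars. The floor (2.53) is a solid and the stricter floor (3.38) a dashed line. The lists of enzymes, exchange factors, cullin partners and substrates lie almost wholly above the floor. Dcun1d1 (2.33) in the neddylation list lies under it. Of the tissue-linked F-box genes, 5 of 13 (38.5%) exceed the floor, against 62.0% of all named genes. At a lower floor of 2.26, 8 of 13 (61.5%) do, against 68.1% of all named genes. Fbxw13, Fbxw15 and Fbxw24 of this list belong to the Fbxw run.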

How the data were processed

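The authors deposited log2 values of 41345 probe sets of 1 array of shCtrl-treated D3 ESCs. Per the submitters' notes these came from Affymetrix Power Tools with RMA (background correction, normalization over a set of arrays, summary per probe set), so a value depends on the arrays of that run. Which arrays these were, the versions and the build are not stated in the sources used here. The log base was taken as 2 from RMA and from the highest value, 12.3. Genes were named from the platform annotation: 23521 probe sets had 1 symbol, 1820 several and 16004 none. Of the first, 23328 matched RefSeq (GRCm38.p6) by Entrez ID, with 0 symbols changed. The rule gave 85 genes with a probe set of 1 symbol; Fbxw10 and Fbxl12, which share a probe set with another gene, were not analysed here, and some other genes of the rule are not reported here. Rbx1, which shares a probe set with a pseudogene, was not analysed here either.

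Members, lists and floors were chosen with earlier results of these data known. Members may all be named. Of each list, the first 4 genes and those on a side of the floor with 5 or fewer were named. Senp8, Ube2d2a, Cdc34, Klhl13, Socs3, Keap1, Dcaf7, Rrm2, Mcl1 and the Dcun1d relatives were named after their values were seen. The alternatives were other floors, the highest or lowest probe set and genes with 1 probe set. The counting step was checked on artificial data with known answers. Promoter windows were aligned globally (match 1, mismatch -1, gap open -2, gap extension -0.5; identity over alignment length). Python 3.11.15, numpy 2.4.6, pandas 2.3.3, Biopython 1.88 and matplotlib 3.10.9 were used. A comparison of member proteins was planned but not made.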

Additional observations from a re-analysis of the deposited data

How the results depend on the processing

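No paired analysis was possible because the data hold a single array. Of 88 alternative counts above the floor, 86 stayed within 1.5 times of the count reported. This limit is wide and was set on counts, not on shares. Over all named genes, 13752 (62.0%) against 10508 (47.4%) at the stricter floor lay within it. So did 63 of 85 members (74.1%) against 62 of 70 (88.6%) without the Fbxw run. Many of the 88 could not move, because some sets hold only genes with 1 probe set. These sets are Fbxl, Fbxo, the Fbxw run, the exchange factors with COP9, the further F-box genes, the anaphase-promoting complex and the tissue-linked genes. Their counts were the same by construction under every choice of probe set. At the stricter floor, 0 genes of the Fbxw run were above, since Fbxw23 (2.92) lies under it, against 47.4% of all named genes above. When the 95th percentile of 297 vomeronasal receptor probe sets was the floor, a log2 value of 2.26, 8 of 13 tissue-linked F-box genes (61.5%) were above it, against 68.1% of all named genes, because Fbxo40, Fbxo41 and Fbxo47 lie between these floors. The median of the members was 4.35 with the highest probe set, 4.13 with the lowest, 4.24 with genes of 1 probe set only and 4.81 without the Fbxw run, an alternative chosen after seeing the data. Of 210 single genes, 195 had 1 probe set and could not change with the choice of probe set. Signal over the floor limits what can be said of a gene near it: by construction, 5.05% of the probe sets that set the floor exceed it.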
